A study of Mus musculus with 24 samples.

Results

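Adult mouse whole hearts were compared with whole hearts of E17.5 embryos, shortly before birth, and hearts of postnatal day 1 (P1) were used to divide each change into a part before P1 and a part after it. The comparison rests on 4 of the 12 RNA samples of the series, 2 adult and 2 E17.5, chosen by their titles, and P1 adds 2 more. Each RNA sample has a gene-level and an exon-level set of array values, so the adult and E17.5 samples account for 8 of the 24 sets. The other 6 samples are embryonic stem cells and the embryonic bodies and cardiac bodies grown from them, and were used to estimate the spread between replicates and to see where the adult arrays lie among all arrays. No group carries a named mutation, transgene or treatment. Strain, sex, the age of the adult mice and any pooling of hearts were not given in the sources used here, and the labels do not say that replicates came from separate animals, so the p-values measure only the spread between these samples, which may be technical.

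Around birth the mammalian heart passes from a hypoxic, lactate- and glucose-using organ that grows by cell division to one that burns fatty acids and grows by enlargement of its muscle cells. Sarcomeres, the contractile units, exchange fetal for adult subunits, the matrix matures, immune cells settle in the tissue, and many transcripts change their splicing. The comparison asks how much of this is seen between E17.5 and the adult, and on which side of P1 it falls.

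Values are log2 signals, so a difference of 1 equals a 2-fold ratio, and each change is given ± its standard error from a limma fit over all 12 arrays. A gene was called changed at an adjusted p (limma, Benjamini-Hochberg over 19920 genes) under 0.05. The share before P1 is the P1 minus E17.5 difference as a percentage of the adult minus E17.5 difference: 0% means that P1 equalled E17.5, 100% that P1 already equalled the adult, and values outside this range that P1 lay beyond one of them. It was read only for called changes of at least 1, as mostly before P1 at 70% or more and mostly after P1 at 30% or less. The deposited values carry no detection calls, so a low signal, such as one below the array medians of 5.62 to 5.76, is not known to lie above background, and the size and share of a change that starts or ends there depend on that floor. In whole hearts, fewer cells of a type and less RNA per cell cannot be told apart.

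Adult replicate 1 carried little signal of atrial muscle, although it was labelled whole heart. The mean over 10 atrial marker genes was 9.861 and 9.656 at E17.5, 9.953 and 9.777 at P1, and 6.886 and 9.766 in adult replicates 1 and 2. Myl7, the atrial regulatory light chain, had 12.28 and 12.01 at E17.5, 11.96 and 11.88 at P1 and 5.42 and 11.27 in adult hearts. Myl4, the atrial essential light chain, had 12.51 and 12.53 at E17.5, 11.87 and 12.14 at P1 and 7.01 and 12.28 in adult hearts. Bmp10, an atrial growth factor chosen like Mybphl after its values were seen, had 8.68 and 8.48 at E17.5, 8.26 and 8.17 at P1 and 3.74 and 10.14 in adult hearts. Adult replicate 1 therefore sat far below all 5 other hearts for these genes. Adult replicate 2 lay near the younger hearts for Myl4, lower for Myl7, and above them for Bmp10, whose difference was 1.56 without adult replicate 1. Myl7 fell by 3.80 ± 1.22 (adjusted p = 0.0279, limma), but without adult replicate 1 the difference was −0.88 (adjusted p = 0.1) and without adult replicate 2 it was −6.73; the call was also lost without either E17.5 array. Of the 10 atrial markers 1 was higher and 4 were lower in adult hearts, against 3 and 2 without adult replicate 1, and 1 and 9 without adult replicate 2. Atrial genes are therefore not described further. General heart muscle markers were high throughout: the mean over 10 of them, among them Tnnt2 and Actc1, lay at 12.38 and 12.295 in adult hearts, against 12.084 and 12.028 at E17.5.

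**Figure D1:**
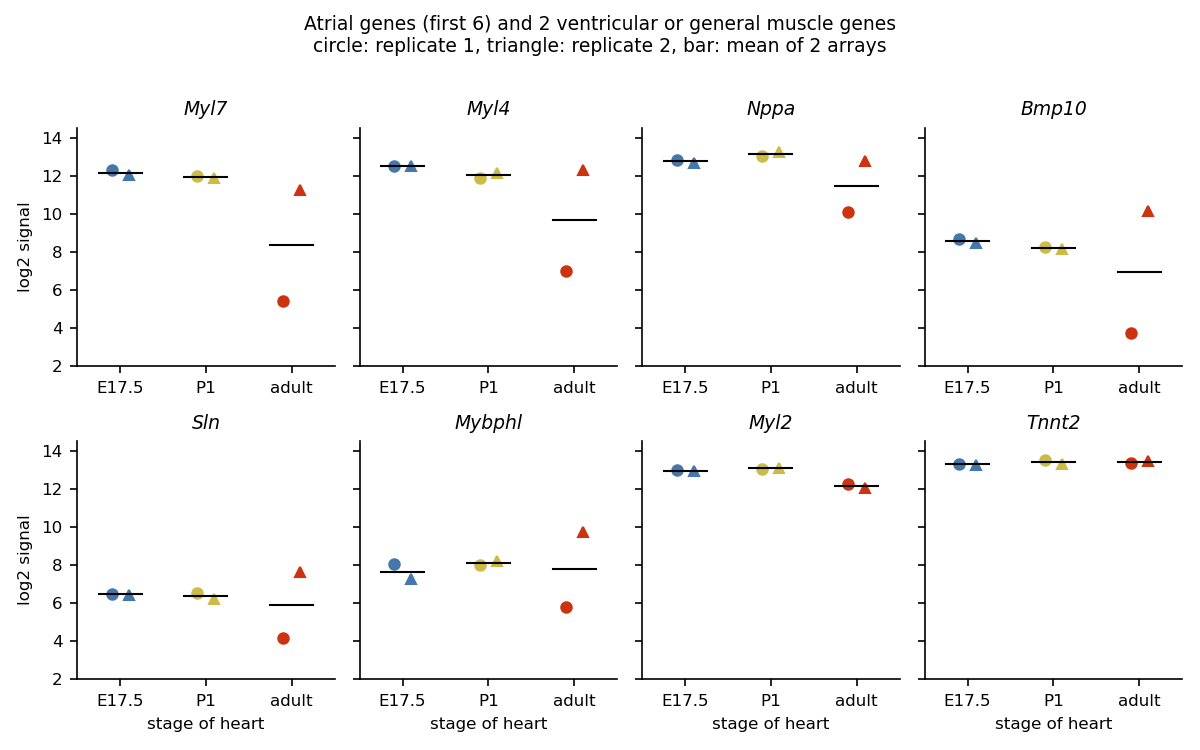
Log2 signal (vertical axis) of 6 atrial genes and of Myl2 and Tnnt2, a ventricular and a general heart muscle gene, in each heart array at E17.5, P1 and adult; each point is 1 array. Adult replicate 1 lies at 5.42 for Myl7 and 3.74 for Bmp10, while adult replicate 2 lies at 11.27 for Myl7, below the younger hearts, and at 10.14 for Bmp10, above them.

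The adult arrays also stood apart from the rest of the series more than any other pair did. Both adult arrays lay on the same side of all 10 other arrays for 6529 genes (32.8%), against 3.11 to 20.4% of genes for the other pairs. Dates and batches of the array runs were not given, so adult age and any difference in array processing cannot be told apart. Replicates correlated at 0.9924 at E17.5, 0.9713 at P1 and 0.9838 in adult hearts. They differed by over 1 for 49 genes at E17.5, 1076 at P1 and 255 in adult hearts, so the P1 pair was the least alike of these.

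Between adult and E17.5 hearts 36.1% of the measured genes changed, in both directions alike, and more genes were called in the part after P1 than in the part before. Of 19920 genes, 3600 rose (18.1%) and 3588 fell (18%), and the median over all genes was 0.0534. Adult and E17.5 arrays did not overlap for 13537 genes (68.0%). Changes of at least 1 numbered 3830 (19.2%), 1848 rises (9.28%) and 1982 falls (9.95%). By P1 1021 genes were called (5.13%), of which 414 rose (2.08%) and 607 fell (3.05%), but with quantile normalization 625 rose and 595 fell, so the balance between rises and falls by P1 depends on the scaling. After P1 6018 were called (30.2%), of which 3098 rose (15.6%) and 2920 fell (14.7%). Among the 1848 rises, 97 lay mostly before P1, 454 were divided between both parts and 1297 lay mostly after P1, with a median share before P1 of 15.2%. Of the 1982 falls, 299 lay mostly before P1, 711 were divided and 972 lay mostly after, with a median share of 30.9%. Over all genes the parts were called different for 2533 (12.7%), with the later part more positive for 1407 (7.06%) and more negative for 1126 (5.65%), or 1352 and 1423 with quantile normalization. The part after P1 was called larger than the part before for 753 rises and 508 falls, and the part before was called larger for 30 rises and 107 falls. The median shares depend on the P1 array: with P1 replicate 1 alone they were 12.4% for rises and 24.0% for falls, and with P1 replicate 2 alone 21.2% and 34.4%. The number of genes called by P1 was 1021 with all arrays, 3056 without P1 replicate 1, 544 without P1 replicate 2, and 303 and 353 without E17.5 replicates 1 and 2.

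**Figure D2:**
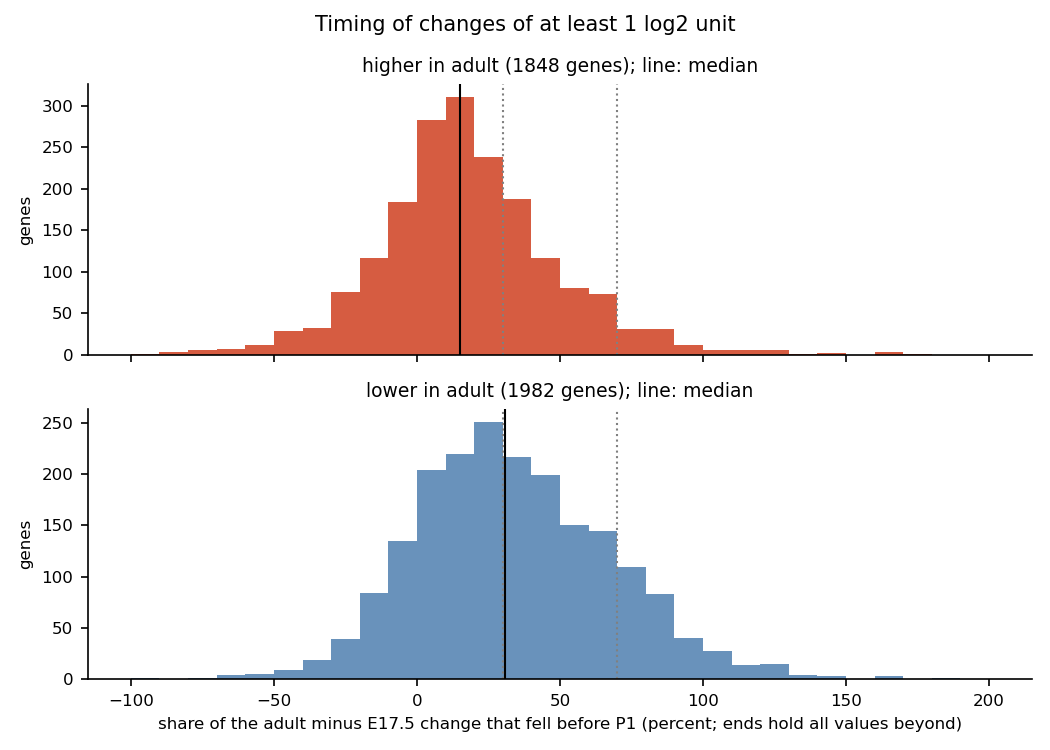
Number of genes (vertical axis) by the share of the adult minus E17.5 change that was present at P1 (horizontal axis, percent), for the 1848 rises and 1982 falls of at least 1. Solid lines mark the medians of 15.2% and 30.9%, dotted lines the limits of 30 and 70%; most genes lie left of 30%.

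Gene groups divided at P1 in different ways. Most changes of mitosis and fatty acid genes lay mostly before P1, and most of those of matrix, antigen presentation and macrophage genes lay mostly after it. Of all changes of at least 1, 10.3% lay mostly before P1 and 59.2% mostly after it. The share mostly after P1 was 70.2% among all rises and 49.0% among all falls, so a late change was common outside these groups too. The groups and their genes are described in turn.

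**Figure D3:**
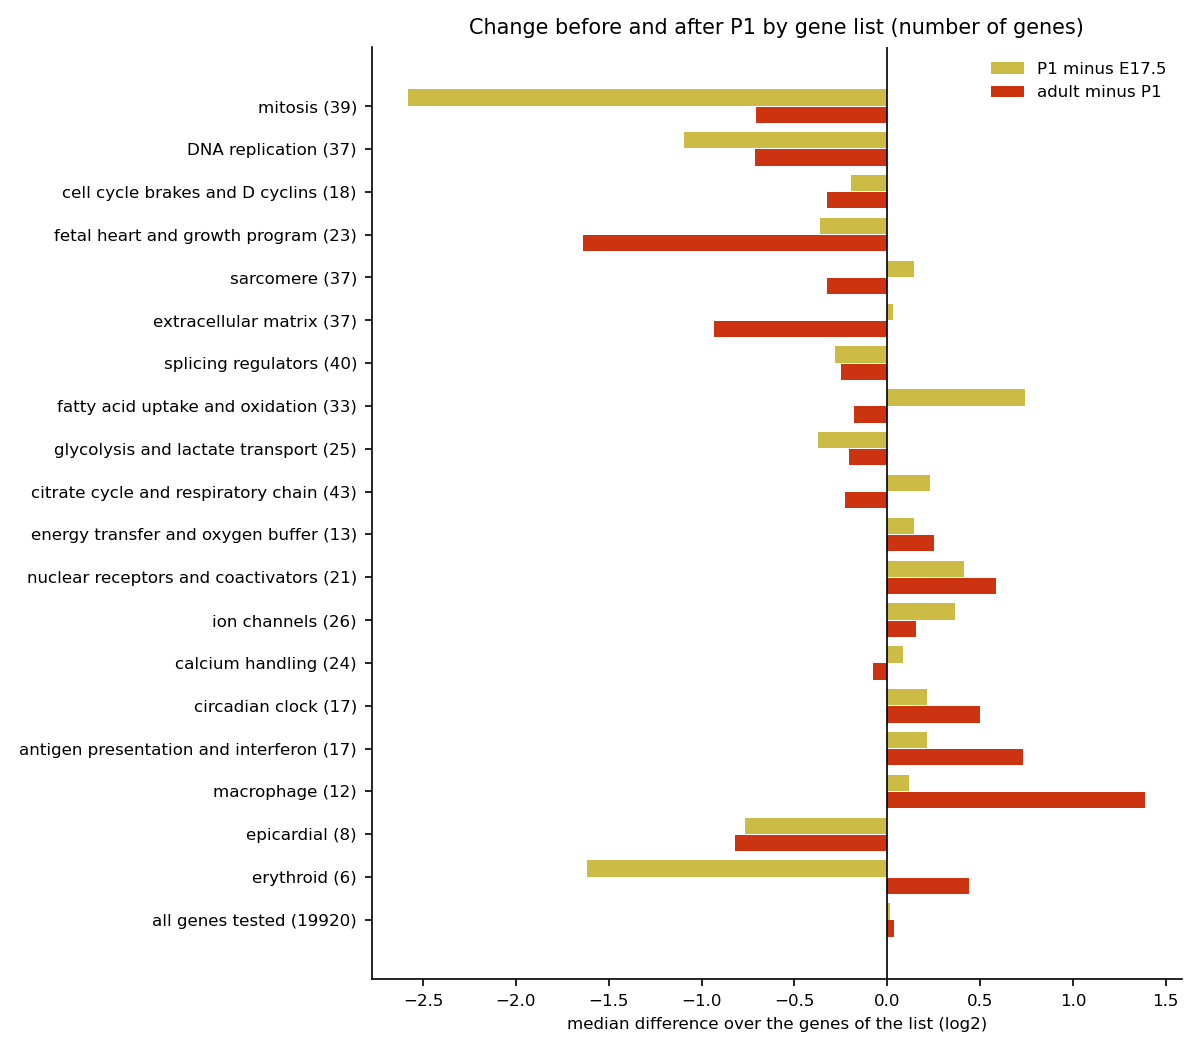
Median log2 difference over the measured genes of 20 groups (all genes tested among them), divided into P1 minus E17.5 and adult minus P1 (horizontal axis). The mitosis group moved by −2.58 before P1 and −0.70 after it, the fatty acid group by 0.74 and −0.18, and the matrix group by 0.03 and −0.93.

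Among genes of the contractile apparatus, transcripts of fetal troponin I and beta myosin fell strongly after P1. Tnni1, the slow skeletal troponin I of the fetal heart (transcript cluster 10350149), had 11.70 and 11.64 at E17.5, 11.53 and 11.80 at P1 and 5.42 and 5.89 in adult hearts. It fell by 6.01 ± 0.30 (adjusted p = 5.6e-08), the largest fall of any gene, and none of it was present at P1, where both arrays matched E17.5. Tnni3, the cardiac troponin I that replaces it, had 10.95 and 10.85 at E17.5, 11.35 and 11.70 at P1 and 12.52 and 12.36 in adult hearts. It rose by 1.54 ± 0.27 (adjusted p = 0.000773), with a share before P1 of 40.4%. Myh7, the slow beta myosin heavy chain, had 12.97 and 12.93 at E17.5, 12.76 and 12.64 at P1 and 8.0 and 6.92 in adult hearts. It fell by 5.5 ± 0.51 (adjusted p = 5.54e-06) and 4.6% of this was present at P1. Myh6, the adult alpha myosin heavy chain, had 12.33 and 11.95 at E17.5, 13.22 and 12.80 at P1 and 12.71 and 12.51 in adult hearts. It was already abundant before birth, and its adult minus E17.5 difference of 0.47 ± 0.21 was not called (adjusted p = 0.107).

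**Figure D4:**
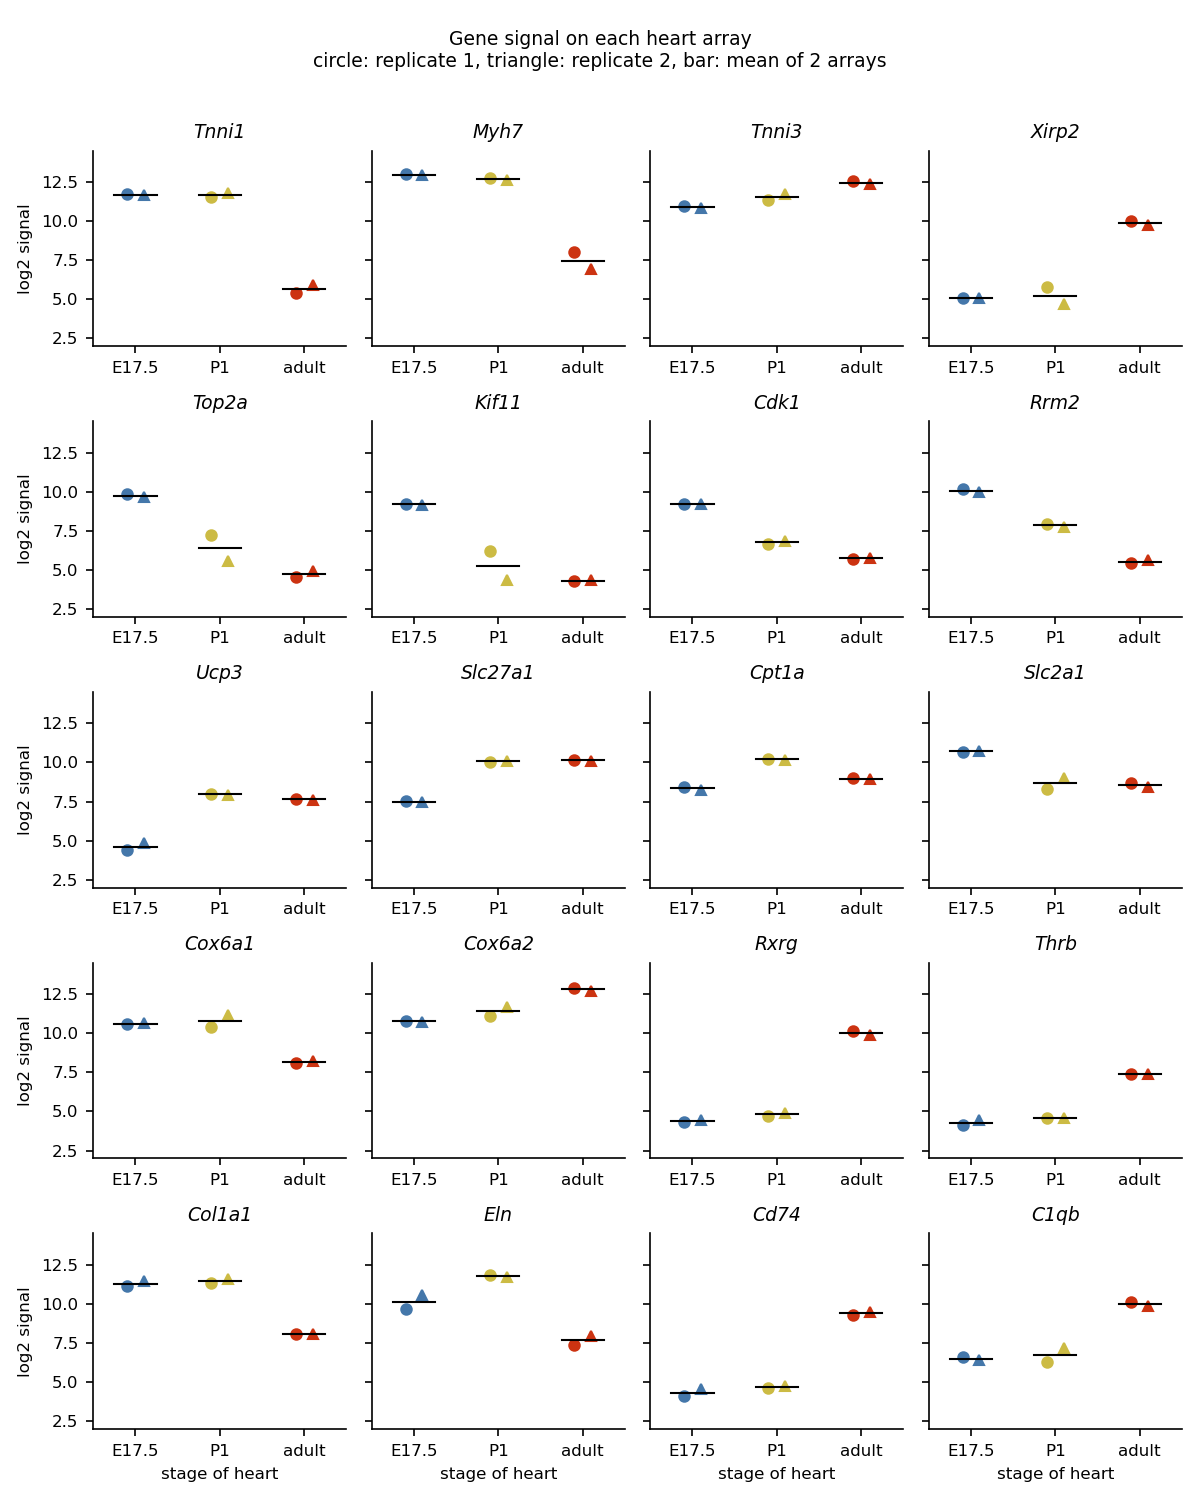
Log2 signal (vertical axis) of 20 genes of the groups described in the text, in each heart array at E17.5, P1 and adult; each point is 1 array. Tnni1 and Myh7 hold their E17.5 level at P1 and are far lower in adult hearts. Top2a and Kif11 have already fallen at P1, where replicate 1 still lies above the adult arrays. Ucp3 and Slc27a1 are already high at P1.

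Of 37 sarcomere genes 10 rose and 13 fell, with a median difference of −0.02 against 0.05 over all genes; the 13 were 7 and 8 without E17.5 replicates 1 and 2. Xirp2, an actin-binding protein of the intercalated disc and Z-disc, had 9.99 and 9.74 in adult hearts, against 5.11 and 5.08 at E17.5. It rose by 4.77 ± 0.28 (adjusted p = 1.42e-07), 2.9% of it before P1. Among sarcomere genes chosen after their values were seen, Lmod2, which lengthens thin filaments, rose by 2.40 ± 0.30 and Myoz2, a calcineurin-binding Z-disc protein, by 2.11 ± 0.32. Mybpc3, the cardiac myosin-binding protein C, fell by 1.45 ± 0.22, and Tnnt1, the slow skeletal troponin T, fell by 1.82 ± 0.22. Shares before P1 were 7.5% for Lmod2, 37.5% for Myoz2, −4.6% for Mybpc3 and 30.8% for Tnnt1. Myom2, an M-band protein, went past its adult level at P1: it had 9.69 and 9.32 at E17.5, 11.5 and 11.27 at P1 and 10.81 and 10.44 in adult hearts. Its P1 minus E17.5 difference was 1.88 (adjusted p = 0.000383) and its adult minus P1 difference was −0.76 (adjusted p = 0.0227), and that later fall was not called without P1 replicate 1 or without adult replicate 2. Cardiac troponin T (Tnnt2, 0.13 ± 0.19) and skeletal actin (Acta1, 0.77 ± 0.41) were not called. Myl2, the ventricular regulatory light chain, had 12.23 and 12.06 in adult hearts, against 12.98 and 12.92 at E17.5, a call that was lost without E17.5 replicate 1 or adult replicate 2.

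Genes of fetal growth fell, again mainly after P1. Of 23 genes of the fetal heart and growth group 17 fell and none rose, with a median of −2.13. The list holds the atrial genes Myl7 and Myl4, and without adult replicate 1 there were 14 falls and a median of −1.38. With all arrays 10 of the 16 falls of at least 1 lay mostly after P1, against 49.0% of all falls of that size. Mest, an imprinted gene of embryonic mesoderm, had 12.68 and 12.58 at E17.5, 11.84 and 12.06 at P1 and 7.27 and 7.70 in adult hearts. It fell by 5.14 ± 0.24 (adjusted p = 3.67e-08), 13.1% of it before P1. Igf2bp3, a fetal RNA-binding protein that stabilises growth transcripts, fell by 3.29 ± 0.19, with 17.2% before P1. Cdkn1c, an imprinted inhibitor of the cell cycle, fell by 3.11 ± 0.18, with 42.7% before P1, where its fall was already called. Of imprinted genes chosen after their values were seen, Dlk1 fell by 3.08, Meg3 fell by 2.80, Grb10 fell by 2.38 and Plagl1 fell by 2.21. Igf2, the fetal insulin-like growth factor, differed between the adult arrays: it had 11.59 and 11.76 at E17.5, 11.65 and 12.05 at P1 and 9.67 and 11.45 in adult hearts. It fell by 1.12 (adjusted p = 0.0489), but the difference was −0.23 (adjusted p = 0.534) without adult replicate 1 and −2.01 without adult replicate 2. Capn6, a calpain without protease activity, had 4.47 and 5.35 in adult hearts, against 9.84 and 9.77 at E17.5. Itm2a, a membrane protein of developing muscle and cartilage, had 6.29 and 6.46 in adult hearts, against 10.96 and 11.11 at E17.5. Both adult arrays lay more than 4 units below E17.5 for both genes. Their shares before P1 were 31.4% for Capn6 and 27.0% for Itm2a. Lin28b, a fetal RNA-binding protein, was called at −0.76 ± 0.21, a call lost without E17.5 replicate 2 or adult replicate 2, and Hmga2 was not called (−0.21 ± 0.26). Nppb, the natriuretic peptide B of stretched heart muscle, had 9.63 and 9.17 at E17.5, 7.44 and 8.84 at P1 and 7.98 and 7.01 in adult hearts, and the call of its difference of −1.90 ± 0.60 was lost without either E17.5 array or adult replicate 2. Its share before P1 was 66.1%, and its difference by P1 was not called.

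Cell division genes fell, and most of that fall was complete by P1. All 39 measured mitosis genes fell between E17.5 and the adult (median −3.26, against 0.05 over all genes), and all 39 had also fallen by P1 (median −2.58). By the share, 30 of the 39 lay mostly before P1, 9 were divided and none lay mostly after, with a median share of 78.8%. The P1 arrays differed in this group: 13 of the 39 genes were higher by over 1 in P1 replicate 1, the median share was 89.5% with P1 replicate 2 alone and 70.1% with P1 replicate 1 alone, and 20 genes lay mostly before P1 with P1 replicate 1 alone.

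The 3 mitosis genes with the largest falls were Top2a, Prc1 and Kif11. Promoters of such genes are known to carry the CCAAT box, bound by the factor NF-Y, and the cell cycle homology region TTTGAA, bound by the DREAM and MuvB complexes that silence or activate cell cycle genes. The 250 bases before each start are shown to make these letters visible, from RefSeq on GRCm38.p6, 5′ to 3′ on the gene's strand, and both motifs are in capitals. On the other strand the CCAAT box reads as ATTGG. The homology region reads there as TTCAAA. Prc1 has 2 entries in the table, of which 1 is shown. The regions are chr11:99024190-99024439 (minus strand) for Top2a, chr7:80294201-80294450 (plus strand) for Prc1 and chr19:37376132-37376381 (plus strand) for Kif11.
Top2a: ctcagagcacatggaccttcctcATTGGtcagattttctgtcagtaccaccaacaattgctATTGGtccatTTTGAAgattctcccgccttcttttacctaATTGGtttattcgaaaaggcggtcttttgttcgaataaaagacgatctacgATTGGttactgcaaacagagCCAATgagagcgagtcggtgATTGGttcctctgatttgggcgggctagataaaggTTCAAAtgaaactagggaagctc
Prc1: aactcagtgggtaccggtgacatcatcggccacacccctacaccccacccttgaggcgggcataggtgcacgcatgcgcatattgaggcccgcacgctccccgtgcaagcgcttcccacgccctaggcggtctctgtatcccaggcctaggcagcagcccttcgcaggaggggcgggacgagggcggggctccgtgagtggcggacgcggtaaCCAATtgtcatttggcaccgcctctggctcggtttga
Kif11: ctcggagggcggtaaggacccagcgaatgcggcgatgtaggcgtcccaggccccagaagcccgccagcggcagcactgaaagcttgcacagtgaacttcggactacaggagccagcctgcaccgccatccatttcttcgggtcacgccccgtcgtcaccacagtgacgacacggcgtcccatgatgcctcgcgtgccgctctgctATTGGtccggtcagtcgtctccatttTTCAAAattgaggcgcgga
The Top2a stretch holds 6 CCAAT boxes and 2 TTTGAA motifs, the Prc1 stretch 1 and 0, and the Kif11 stretch 1 and 1. Of 32 mitosis genes with an entry, 25 held a CCAAT (78.1%) and 12 a TTTGAA (37.5%), against 34.5% and 16.3% of 27025 promoters of the same length. These are matches of letters, not measured binding sites.

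Top2a, the topoisomerase that untangles replicated DNA, had 9.83 and 9.64 at E17.5, 7.22 and 5.55 at P1 and 4.52 and 4.96 in adult hearts. It fell by 5.0 ± 0.39 (adjusted p = 1.38e-06), 67.0% of it before P1, and P1 replicate 1 was the higher of that pair. Prc1, which bundles the spindle midzone, had 8.89 and 8.64 at E17.5, 6.15 and 4.67 at P1 and 3.89 and 3.91 in adult hearts. It fell by 4.86 ± 0.36, with 68.9% before P1. Kif11, the motor that separates spindle poles, had 9.20 and 9.16 at E17.5, 6.21 and 4.36 at P1 and 4.31 and 4.33 in adult hearts. It fell by 4.86 ± 0.41 (adjusted p = 2.8e-06), with 80.2% before P1, and its later difference of −0.96 was not called (adjusted p = 0.1). Cdk1, the mitotic kinase, had 9.21 and 9.20 at E17.5, 6.67 and 6.85 at P1 and 5.71 and 5.79 in adult hearts. It fell by 3.45 ± 0.16, and the change was called on both sides of P1. Of mitotic regulators chosen after their values were seen, Aurkb fell by 2.58, Plk1 fell by 3.40, Ccna2 fell by 4.05 and Birc5 fell by 2.94, with shares of 62.0%, 69.9%, 72.2% and 78.1% in that order. Ect2, an activator of cytokinesis, fell by 4.69 ± 0.34 with 77.6%, and Mki67, the proliferation marker Ki-67, fell by 3.26 ± 0.30 with 79.2%.

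DNA replication genes also fell, on both sides of P1. Of 37 measured, 36 fell and none rose, with a median of −1.74, and 28 had fallen by P1 (13 without E17.5 replicate 1 and 17 without replicate 2). Of 31 falls of at least 1, 7 lay mostly before P1, 23 were divided and 1 lay mostly after, with a median share of 57.6%. Rrm2, the regulated subunit of ribonucleotide reductase, had 10.14 and 10.01 at E17.5, 7.96 and 7.77 at P1 and 5.42 and 5.64 in adult hearts. It fell by 4.54 ± 0.19 (adjusted p = 2.3e-08), 48.6% of it before P1. Mcm6, a subunit of the replicative helicase, fell by 3.77 ± 0.19 with 42.0% before P1, and Prim1, a primase subunit, fell by 3.37 ± 0.20 with 57.6%. Rrm1, the large subunit of ribonucleotide reductase, fell by 3.36 ± 0.23 with 67.7%.

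Among 18 cell cycle brakes and D cyclins 3 rose and 9 fell. Rb1, the retinoblastoma brake, and Ccng1, both chosen after their values were seen, rose by 1.48 ± 0.33 and 1.47 ± 0.27, while Rbl1, its relative p107, fell by 2.87 ± 0.27 and Cdkn2d fell by 2.71 ± 0.21. Ccng2 fell by 1.60 ± 0.29. Ccnd2, chosen in the same way as Rb1, fell by 1.58 ± 0.28, whereas Ccnd1 had 9.02 and 8.63 in adult hearts, against 9.21 and 9.25 at E17.5, and was not called. The brakes as a group therefore did not move in one direction. Blood cell precursors also divide, and the mean over 6 erythroid markers was 6.436 and 7.343 at E17.5, 4.867 and 5.275 at P1, and 5.207 and 5.864 in adult hearts. The fall of cell division genes by P1 thus ran alongside a fall of this mean, and its part in the fall was not tested.

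Fatty acid genes rose mostly before P1, and more of them fell than rose after it. Of 33 genes of fatty acid uptake and oxidation, 18 rose and 3 fell between E17.5 and the adult (median 0.65), and 17 had risen and 1 had fallen by P1 (median 0.74). After P1, 6 rose and 11 fell (median −0.18). Of the 12 changes of at least 1, 8 lay mostly before P1, with a median share of 99.0%. The later part was called more negative than the earlier one for 19 genes and more positive for 2. The 3 falls were 0 or 1 when any 1 E17.5 or adult array was left out.

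Ucp3, a mitochondrial carrier induced by fatty acids, had 4.39 and 4.83 at E17.5, 7.99 and 7.92 at P1 and 7.64 and 7.62 in adult hearts. It rose by 3.02 ± 0.18 (adjusted p = 2.12e-07), and its P1 and adult values were close (share 110.8%). Lpl, the lipase that frees fatty acids from blood lipoproteins, rose by 2.22 ± 0.29 with a share of 33.4%. Slc27a1, a fatty acid transporter, had 7.54 and 7.44 at E17.5, 10.05 and 10.10 at P1 and 10.15 and 10.11 in adult hearts. It rose by 2.64 ± 0.18 (adjusted p = 4.36e-07), with a share of 97.9%. Pdk4, the kinase that shuts pyruvate dehydrogenase when fat is burned, rose by 2.89 ± 0.21 with a share of 88.9%, and Fabp4, a fatty acid binding protein of capillaries and fat cells, rose by 1.87 ± 0.23 with a share of 102.8%. Cpt2 and Fabp3, the inner membrane carnitine transferase and the heart fatty acid binding protein, both chosen after their values were seen, rose by 2.19 and 1.14, with shares of 67.9% and 100%.

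Several genes of the group peaked at P1. Cpt1a, the liver form of the rate-setting carnitine transferase, had 8.46 and 8.24 at E17.5, 10.21 and 10.16 at P1 and 8.98 and 8.95 in adult hearts. Its P1 minus E17.5 difference was 1.84 (adjusted p = 9.6e-05) and its adult minus P1 difference −1.22 (adjusted p = 0.000292), so P1 stood above both ages. The remaining adult rise of 0.62 was not called without E17.5 replicate 2 or without either adult array. In all, 8 genes of the group were called higher by P1 and lower after it, namely Cpt1a, Acot1, Hadhb, Slc25a20, Acadvl, Eci2, Acacb and Mlycd, listed after their values were seen. Slc25a20, the carnitine carrier of the inner membrane, had 9.80 and 9.72 at E17.5, 10.82 and 10.58 at P1 and 9.31 and 9.45 in adult hearts. Acadvl, the first dehydrogenase of long chains, had 9.61 and 9.39 at E17.5, 10.82 and 10.57 at P1 and 9.44 and 9.31 in adult hearts, with P1 highest again. Oxct1, which opens the use of ketone bodies, took the opposite course: it had 10.78 and 10.61 at E17.5, 9.51 and 8.93 at P1 and 11.01 and 10.73 in adult hearts, with P1 lowest. The calls by P1 were lost for Hadhb when any 1 E17.5 or P1 array was left out and for Slc25a20 without either E17.5 array, and those for Acacb and Mlycd after P1 were lost without adult replicate 2. Cd36, the main fatty acid channel, had 12.08 and 12.17 in adult hearts, against 11.09 and 10.80 at E17.5, and was not called (adjusted p = 0.0881).

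Glucose and lactate handling fell in part before P1. Of 25 genes of glycolysis and lactate transport 4 rose and 14 fell (median −0.79), and 6 had fallen by P1, or 3 without either E17.5 array. Of 14 changes of at least 1, 2 lay mostly before P1, 6 were divided and 6 lay mostly after, with a median share of 35.1%. After P1, 6 genes rose (3 with the median of exon-level values) and 7 fell. The 2 changes mostly before P1 were those of Slc2a1 and Slc16a3. Slc2a1, the fetal glucose transporter, had 10.67 and 10.74 at E17.5, 8.28 and 9.03 at P1 and 8.70 and 8.44 in adult hearts. It fell by 2.13 ± 0.28 (adjusted p = 8.47e-05) with 96.1% before P1, so P1 and adult arrays lay together. Slc16a3, a lactate exporter, fell by 2.56 ± 0.29 with a share of 85.5%. Aldoc, an aldolase isoform, fell later: it had 8.29 and 8.48 at E17.5, 7.5 and 7.74 at P1 and 5.15 and 4.75 in adult hearts. It fell by 3.44 ± 0.30, 22.3% of it before P1. Slc2a4, the insulin-responsive glucose transporter, rose by 1.52 ± 0.23 with a share of 18.2%, and Pdk2, a second pyruvate dehydrogenase kinase, rose by 2.60 ± 0.23 with a share of 61.0%. Hk1, a hexokinase, fell by 1.27 ± 0.17 with a share of −0.4%, a call that was not kept when the gene's level was taken as the median of its exon-level values. Hk2 was called at −0.94 ± 0.20 and Ldha, a lactate dehydrogenase subunit, at −0.65 ± 0.18, and both calls were lost with that median; the Ldha call was also lost when any 1 E17.5 or adult array was left out.

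Respiratory chain genes moved in both directions, and muscle isoforms of cytochrome oxidase subunits rose while some ubiquitous ones fell. Of 43 genes of the citrate cycle and respiratory chain, 10 rose and 10 fell (6 with the median of exon-level values), with a median of −0.05, and none was called by P1 (5 rose without P1 replicate 1). The mean signal of the group was high throughout, 11.296 and 11.302 in adult hearts against 11.281 and 11.228 at E17.5. Cox6a2, the muscle form of a cytochrome oxidase subunit, had 10.79 and 10.71 at E17.5, 11.07 and 11.70 at P1 and 12.86 and 12.72 in adult hearts. It rose by 2.04 ± 0.29 (adjusted p = 0.000158). Cox6a1, the ubiquitous form, had 10.58 and 10.62 at E17.5, 10.37 and 11.13 at P1 and 8.08 and 8.24 in adult hearts. It fell by 2.44 ± 0.22 (adjusted p = 4.86e-06) in the gene-level values, but with the median of the exon-level values the adjusted p was 0.119. Cox8b and Cox7a1, the other muscle forms, rose by 2.90 ± 0.35 and 1.57 ± 0.34, Cox7a2 (chosen after its values were seen) fell by 1.23 ± 0.18, and Cox8a was not called (−0.08 ± 0.19). These changes had shares of 31.1% for Cox6a2, 32.6% for Cox8b and 10.5% for Cox7a1.

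Energy transfer genes rose or were not called. Of 13, 7 rose and none fell (median 0.82). Ckmt2, the mitochondrial creatine kinase of muscle, had 7.56 and 7.60 at E17.5, 8.76 and 9.20 at P1 and 11.52 and 11.32 in adult hearts. It rose by 3.84 ± 0.19 (adjusted p = 5.19e-08), 36.4% of it before P1. Slc6a8, the creatine transporter, rose by 2.36 ± 0.25, and Mb, the oxygen store myoglobin, rose by 1.29 ± 0.24 with a share of 80.4%. Ckm, the cytosolic muscle creatine kinase, had 11.98 and 11.94 in adult hearts, against 12.22 and 12.07 at E17.5, and was not called, nor was Ckb (−0.5 ± 0.27). Gatm, which makes the precursor of creatine, had 6.28 and 6.21 at E17.5, 5.82 and 5.87 at P1 and 7.76 and 7.86 in adult hearts. It rose by 1.57 ± 0.20, and P1 lay below both ages, although its difference by P1 was not called. Ak4, a mitochondrial adenylate kinase, had 7.59 and 7.43 at E17.5, 6.31 and 6.65 at P1 and 9.59 and 9.37 in adult hearts. The order was the same, again without a call by P1. Its adult minus E17.5 call was lost when its transcript clusters were averaged.

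Nuclear receptors that set metabolic programs rose or were not called. Of 21 receptors and coactivators 11 rose and none fell, with a median of 1.00, or 0.59 without adult replicate 1. Of the 11 changes of at least 1, 8 lay mostly after P1, a share close to the 70.2% of all rises. Rxrg, a retinoid X receptor, had 4.32 and 4.47 at E17.5, 4.72 and 4.89 at P1 and 10.11 and 9.91 in adult hearts. It rose by 5.62 ± 0.19 (adjusted p = 1.37e-08), 7.3% of it before P1, among the largest rises of all genes. Thrb, the beta thyroid hormone receptor, had 4.14 and 4.43 at E17.5, 4.60 and 4.58 at P1 and 7.37 and 7.39 in adult hearts. It rose by 3.10 ± 0.22 (adjusted p = 7.39e-07) with a share of 9.9%. Thra, the alpha receptor, had 9.13 and 8.91 at E17.5, 10.03 and 10.23 at P1 and 9.33 and 9.28 in adult hearts, with P1 above both ages. Its rise by P1 was not called without either E17.5 array or without P1 replicate 2. Ppara, the receptor that turns on fatty acid oxidation, had 7.32 and 7.27 at E17.5, 7.69 and 7.65 at P1 and 9.01 and 8.89 in adult hearts. It rose by 1.66 ± 0.16 with 22.8% before P1. Ppargc1a, the coactivator of mitochondrial growth, rose by 1.29 ± 0.32, a call lost without E17.5 replicate 2. Klf9, a target of thyroid and glucocorticoid hormones, had 6.34 and 6.55 at E17.5, 7.70 and 7.01 at P1 and 9.79 and 9.92 in adult hearts. It rose by 3.41 ± 0.25 with a share of 26.7%, while Esrrg was not called (0.35 ± 0.21).

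Among ion channels more genes rose than fell, and most calcium handling genes were not called. Of 26 channel genes 13 rose and 4 fell (median 0.83), and 10 of the 14 changes of at least 1 lay mostly after P1. That is near the background, since 59.2% of all changes of this size and 70.2% of all rises lay mostly after P1. The 4 falls were 2 without adult replicate 2. Kcnd2, a pore subunit of the transient outward potassium current, had 5.85 and 5.70 at E17.5, 5.81 and 5.32 at P1 and 8.90 and 9.40 in adult hearts. It rose by 3.37 ± 0.22 (adjusted p = 3.88e-07), with a share of −6.3%. Kcnd3, the other pore subunit, chosen after its values were seen, rose by 2.04 ± 0.21 with a share of 6.9%. Kcnip2, their accessory subunit, moved earlier: it had 7.60 and 7.41 at E17.5, 8.47 and 9.15 at P1 and 9.31 and 9.0 in adult hearts. It rose by 1.65 ± 0.23 with a share of 79.3%, and the rise by P1 was not called without E17.5 replicate 2. Kcnk3, a background potassium channel, rose by 2.39 ± 0.31, and Scn7a, a sodium-sensing channel, rose by 2.97 ± 0.38 with a share of −1.8%. The inward rectifier Kcnj2 (0.32 ± 0.42) and the pacemaker channel Hcn4 (0.64 ± 0.34) were not called. Among 24 calcium handling genes 5 rose and 2 fell (median 0.23), while 36.1% of all genes were called. The 5 rises were 2 without E17.5 replicate 2 and the 2 falls were 4 without adult replicate 2. S100a1, a calcium sensor of heart muscle, had 11.78 and 11.59 in adult hearts, against 9.10 and 9.09 at E17.5. It rose by 2.59 ± 0.51, whereas Casq1, the skeletal calsequestrin, fell by 2.60 ± 0.46. Trdn, triadin, which anchors calsequestrin to the release channel, had 7.40 and 7.52 at E17.5, 7.39 and 6.53 at P1 and 10.47 and 10.61 in adult hearts. It rose by 3.08 ± 0.35, with a share of −16.3%. Cacna2d1, an accessory calcium channel subunit, rose by 2.01 ± 0.48, a call lost without E17.5 replicate 2. The calcium store Casq2 (0.04 ± 0.25), the calcium pump Atp2a2 (0.32 ± 0.18) and its inhibitor Pln (0.44 ± 0.24) were not called, and Ryr2, the release channel, was called at 1.15 ± 0.35, a call lost when any 1 E17.5 or adult array was left out.

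Many matrix genes fell after P1, among them the main fibrillar collagens. Of 37, 20 fell and 5 rose (2 or 3 when any 1 E17.5 or adult array was left out), with a median of −0.86, and 18 of the 22 changes of at least 1 lay mostly after P1, with a median share of 4.8%. Col1a1, a chain of fibrillar collagen, had 11.14 and 11.43 at E17.5, 11.36 and 11.60 at P1 and 8.07 and 8.07 in adult hearts. It fell by 3.21 ± 0.40 (adjusted p = 5.7e-05), with P1 at the E17.5 level. Col3a1 fell by 3.65 ± 0.60 with 7.8% before P1, and Tnc, tenascin C, chosen after its values were seen, fell by 1.93 ± 0.25 with 0.8%. Fbn2, the fetal fibrillin, had 9.64 and 9.58 at E17.5, 9.71 and 9.35 at P1 and 5.47 and 5.30 in adult hearts. It fell by 4.22 ± 0.19 (adjusted p = 2.65e-08) with 1.8% before P1, Col1a2 fell by 3.32 ± 0.39, and Fn1, fibronectin, fell by 2.11 ± 0.30. Eln, elastin, peaked at P1: it had 9.70 and 10.58 at E17.5, 11.84 and 11.70 at P1 and 7.40 and 7.96 in adult hearts. Its P1 minus E17.5 difference was 1.63 (adjusted p = 0.00352) and its adult minus P1 difference −4.09 (adjusted p = 7.99e-07). Timp4, an inhibitor of matrix proteases, went against the group and had 4.19 and 4.62 at E17.5, 6.16 and 6.40 at P1 and 10.21 and 10.04 in adult hearts. It rose by 5.72 ± 0.21 (adjusted p = 1.37e-08), with 32.8% before P1. Fibroblast markers moved in both directions: of 10, which include Col1a1 and Col3a1, 3 rose (1 without E17.5 replicate 1 or adult replicate 2) and 4 fell. Mfap5, a microfibril glycoprotein, rose by 2.69 ± 0.25, and Postn, periostin, fell by 2.58 ± 0.61.

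Antigen presentation genes rose or were not called, and their changes lay mostly after P1. Of 17 genes of antigen presentation and interferon response 12 rose and none fell (median 1.31), none was called by P1, and 8 of 9 changes of at least 1 lay mostly after P1. Among all rises of that size 70.2% lay mostly after P1. H2-Aa, an MHC class II chain, had 4.60 and 4.09 at E17.5, 4.59 and 4.30 at P1 and 9.57 and 9.75 in adult hearts. It rose by 5.32 ± 0.24 (adjusted p = 2.68e-08), 2.0% of it before P1. Cd74, the invariant chain of MHC class II, had 4.09 and 4.57 at E17.5, 4.64 and 4.74 at P1 and 9.31 and 9.49 in adult hearts. It rose by 5.07 ± 0.25, and H2-Ab1, its class II partner, rose by 4.29 ± 0.16. B2m, the light chain of MHC class I, chosen after its values were seen, rose by 2.14 ± 0.26. Ifit1, an interferon-induced RNA sensor, rose by 2.71 ± 0.21 with a share of 11.4%.

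Macrophage markers rose in the same interval. Of 12, 10 rose and 1 fell, and all 10 changes of at least 1 lay mostly after P1, against 59.2% of all changes of that size. The mean over the list was 6.208 and 6.262 at E17.5, 6.237 and 6.329 at P1, and 7.54 and 7.809 in adult hearts. C1qb, a complement subunit made by tissue macrophages, had 6.59 and 6.40 at E17.5, 6.31 and 7.17 at P1 and 10.10 and 9.88 in adult hearts. It rose by 3.49 ± 0.30 (adjusted p = 2.94e-06) with 6.9% before P1. Lyz2, lysozyme, had 7.61 and 7.47 at E17.5, 6.99 and 7.33 at P1 and 10.32 and 10.77 in adult hearts. It rose by 3.01 ± 0.21, Ms4a7 rose by 2.16 ± 0.20, and Adgre1, the F4/80 antigen, rose by 1.80 ± 0.17. Csf1r, the receptor macrophages need to live, chosen after its values were seen, rose by 1.38 ± 0.20. Of 8 lymphocyte markers 4 rose, or 2 without adult replicate 2, and their mean stayed low, at 5.174 and 5.412 in adult hearts against 4.529 and 4.765 at E17.5. Antigen presentation genes thus moved alongside macrophage markers, and the part of macrophages in their rise was not tested.

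Other cell type lists moved in different directions, some of them no more often than all genes. Over all genes 36.1% were called, 18.1% higher and 18% lower. The endothelial, endocardial and granulocyte and mast cell lists were called about as often. Of 8 epicardial markers 6 fell and none rose (median −1.81). Krt19, a keratin, fell by 2.63 ± 0.36 with 55.7% before P1, Aldh1a2, which makes retinoic acid, fell by 2.16 ± 0.20 with 15.2%, and Msln, mesothelin, fell by 1.98 ± 0.21 with 30.1%. Tbx18, a transcription factor of the epicardium, fell by 2.19 ± 0.31 with 42.9%. Upk3b, a mesothelial membrane protein chosen after its values were seen, had 9.05 and 9.0 at E17.5, 7.23 and 8.08 at P1 and 7.23 and 7.53 in adult hearts. It fell by 1.64 ± 0.25. Of 12 endothelial markers 3 rose (1 without E17.5 replicate 2) and 1 fell. The one that fell was Kdr, the receptor for VEGF, which fell by 1.09 ± 0.26. Of 10 smooth muscle and pericyte markers 3 rose and 3 fell. In the smooth muscle and pericyte list, Cnn1, a smooth muscle calponin, fell by 3.30 ± 0.39 and Rgs5, a pericyte regulator, rose by 2.56 ± 0.37. Their shares before P1 were 47.9% for Cnn1 and 40.4% for Rgs5. Of 6 erythroid markers 3 fell, with 0 or 1 called without E17.5 replicate 2 or without either adult array. Adipocyte markers were low in all hearts, with a mean of 5.317 and 5.726 in adult hearts against 4.572 and 4.742 at E17.5, and 4 of 7 rose, or 2 without E17.5 replicate 1. Pparg, the fat cell receptor, rose by 2.29 ± 0.21, and Lyve1, of lymphatic vessels and resident macrophages, rose by 1.82 ± 0.27. Kit, of mast cells and their precursors, fell by 1.44 ± 0.28, and Mcpt4, a mast cell protease, rose by 1.16 ± 0.20. Of 13 skeletal muscle markers 1 fell and none rose, and none of the lung, thymus or neuronal markers was called. Higher and lower genes numbered 1 and 3 of 6 ventricular, 1 and 1 of 5 endocardial, 2 and 1 of 5 lymphatic, 2 and 1 of 8 granulocyte and mast cell (4 higher without adult replicate 1), and 1 and 0 of 6 liver markers, and 3 and 7 of 21 genes of the intercalated disc (4 lower without E17.5 replicate 1 and 3 without adult replicate 2).

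The genes with the largest rises came from several of these groups and from others. Ifi205, an interferon-inducible DNA sensor, had 2.74 and 2.54 at E17.5, 2.63 and 2.75 at P1 and 8.20 and 8.58 in adult hearts. It rose by 5.75 ± 0.26 (adjusted p = 3.21e-08), the largest difference among rises, measured against a low signal at E17.5 and P1. Ppbp, a platelet chemokine, rose by 5.53 ± 0.52, Lrg1, a secreted leucine-rich glycoprotein, by 5.34 ± 0.33, and Cbr2, a lung-type carbonyl reductase, by 5.13 ± 0.18. Car4, a carbonic anhydrase on capillary walls, had 5.0 and 5.33 at E17.5, 8.07 and 8.58 at P1 and 10.57 and 10.14 in adult hearts. It rose by 5.19 ± 0.77 and 60.9% of this was present at P1, although its early rise was not called without single E17.5, P1 or adult arrays. Lcn2, an iron-binding lipocalin of the stress response, had 9.31 and 9.96 in adult hearts, against 4.92 and 4.64 at E17.5. Wfdc17, a secreted protein of macrophages, rose by 5.22 ± 0.20 with a share of 0.8%, and Ces1d, a carboxylesterase of fat tissue, rose by 5.28 ± 0.24 with 21.9%. Scgb1c1, a secretoglobin, rose by 5.18 ± 0.27. Among the largest falls not yet described, Bex1, a small adaptor of developing nerve and muscle, had 8.89 and 8.35 at E17.5, 7.78 and 8.11 at P1 and 4.57 and 3.83 in adult hearts. It fell by 4.42 ± 0.27 with a share of 15.2%, and Pbk, a mitotic kinase, fell by 4.47 ± 0.23 with 64.6%.

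More clock and stress response genes were higher than lower in adult hearts. Of 17 clock genes 11 rose and 2 fell (median 0.73), while 18.1% of all genes rose and 18% fell. The 11 rises were 6 with the median of exon-level values, and fewer also when any 1 E17.5 or adult array was left out. Nr1d1, the repressor REV-ERB alpha, had 7.06 and 7.0 at E17.5, 8.5 and 8.46 at P1 and 11.23 and 11.25 in adult hearts. It rose by 4.21 ± 0.21 (adjusted p = 5.5e-08), with 34.5% before P1. Dbp, an output factor of the clock, rose by 2.41 ± 0.28 with 11.2% before P1. Cry1, a clock repressor chosen after its values were seen, fell by 1.40 ± 0.24. The hour at which hearts were taken was not given, so a difference in hour and in age cannot be told apart for these genes. Of 15 glucocorticoid and stress genes 8 rose and 2 fell, among them the metallothionein Mt2, which rose by 2.25 ± 0.32 with 7.6% before P1. Per1, a clock repressor, rose by 1.26 ± 0.24. Of 19 immediate early genes 5 rose and 4 fell, against 18.1% and 18% of all genes. Dusp1, a phosphatase of stress kinases, rose by 2.46 ± 0.22 with 50.6% before P1, and Myc fell by 2.0 ± 0.25 with 23.7%. Of 28 cardiac transcription factors 5 rose (3 without E17.5 replicate 2, 8 with the median of exon-level values) and 3 fell, while 18.1% of all genes rose and 18% fell. Tbx5, a regulator of chamber and conduction genes, rose by 1.72 ± 0.36 and Mef2d rose by 1.81 ± 0.26, while Hey2, a Notch target of ventricular muscle, fell by 1.77 ± 0.32. Shares before P1 were 61.2% for Tbx5, 60.4% for Mef2d and 22.6% for Hey2. The difference by P1 was not called for Tbx5 or Hey2, and the call for Mef2d was lost when only hearts were fitted.

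Splicing regulators fell more often than they rose. Of 40, 5 rose (3 without E17.5 replicate 1) and 20 fell (median −0.65), and 4 had fallen by P1, or 15 without P1 replicate 1, 1 without P1 replicate 2 or either E17.5 array, and 2 without either adult array. Rbfox1, a muscle and nerve splicing factor, had 6.22 and 6.41 at E17.5, 7.29 and 6.52 at P1 and 9.25 and 9.34 in adult hearts. It rose by 2.98 ± 0.23 (adjusted p = 1.12e-06), 19.9% of it before P1. Hnrnpf, a splicing repressor, had 11.76 and 11.77 at E17.5, 11.29 and 11.01 at P1 and 8.68 and 8.75 in adult hearts. It fell by 3.05 ± 0.16 (adjusted p = 7.11e-08) with 20.1% before P1, its relative Hnrnph1 fell by 3.17 ± 0.37, and Srsf5 fell by 2.98 ± 0.26 with 3.6%. The polypyrimidine tract proteins Ptbp1 (0.35 ± 0.20) and Ptbp2 (−0.40 ± 0.31) were not called. Mbnl1, which drives the switch to adult splicing in muscle, rose by 1.52 ± 0.29, and its fetal relative Mbnl3 fell by 1.66 ± 0.21 with 84.0% before P1. Srsf1, a general splicing activator that heart muscle needs after birth, fell by 2.43 ± 0.26. Mbnl1, Mbnl3 and Srsf1 were chosen after their values were seen. Rbm20, the splicing repressor of titin, had 9.68 and 9.43 at E17.5, 10.41 and 10.10 at P1 and 8.81 and 8.61 in adult hearts. It fell by 0.84 ± 0.21, with P1 above both ages, although its difference by P1 was not called. Celf1, a fetal splicing regulator, fell by 0.79 ± 0.16. The Rbm20 call was lost without E17.5 replicate 1 or adult replicate 2, and the Celf1 call with the median of its exon-level values.

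A small set of genes moved in opposite directions on the 2 sides of P1. Of the 3830 changes of at least 1, 16 had both parts called and opposite. The row annotated to Mir1a-1, a muscle microRNA gene, had 4.94 and 3.75 at E17.5, 7.01 and 6.62 at P1 and 2.93 and 2.97 in adult hearts. Its P1 minus E17.5 difference was 2.47 (adjusted p = 0.000527) and its adult minus P1 difference −3.87 (adjusted p = 3.97e-06). Cirbp, a cold-inducible RNA-binding protein chosen after its values were seen, had 9.40 and 9.39 at E17.5, 10.51 and 10.38 at P1 and 7.66 and 8.08 in adult hearts, again highest at P1. The rows of 2 small nucleolar RNAs, Snord47 and Snord52, had the reverse order: Snord47 had 6.24 and 5.66 at E17.5, 5.07 and 4.38 at P1 and 9.42 and 9.81 in adult hearts, and Snord52 had 5.56 and 5.30 at E17.5, 4.11 and 3.78 at P1 and 6.93 and 8.20 in adult hearts. Mmrn1, a multimerin of platelets and endothelium, had 4.52 and 4.44 at E17.5, 3.32 and 3.35 at P1 and 6.96 and 7.79 in adult hearts and was lowest at P1. The early parts of Cirbp, Mmrn1, Snord47 and Snord52 were not called without either E17.5 array. Tent5c, a poly(A) polymerase of blood cells, had 8.59 and 9.80 at E17.5, 5.87 and 6.68 at P1 and 7.02 and 7.88 in adult hearts, and its later rise was not called without P1 replicate 1 or without adult replicate 2.

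At the exon level, many probe sets, each measuring a stretch of a gene, changed relative to their gene, and most did so after P1. For each RNA sample the log2 signal of the gene was subtracted from that of the probe set, which gives an index, and an index change of at least 1 with an adjusted p under 0.05 (limma, over 105259 probe sets in 9115 genes) was called. Between E17.5 and adult, 19373 probe sets were called (18.4%), 9783 higher (9.29%) and 9590 lower (9.11%), in 6552 genes (71.9%). Of these, 13580 lay in genes whose own level changed by at most 1 (17.8% of 76142). By P1 none was called (0.0%, limma), with a smallest adjusted p of 0.106, although 3158 had an unadjusted p under 0.05 and a change of at least 1, and 1 was called when only hearts were fitted. After P1 15920 were called (15.1%), 7263 higher (6.9%) and 8657 lower (8.22%). The median share before P1 of the called changes was 14.8%, at 22.6% for rises and 8.8% for falls, and 13566 of them lay mostly after P1. These shares rest on differences by P1 that were not called one by one. A probe set had to reach a signal of 6.45 in only 1 of the compared groups, so some passed through the group where they are high, and the exact size of such an index change depends on a signal not known to lie above background in the other group.

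Both adult arrays lay outside all 10 other arrays for 35260 of the probe sets (33.5%), against 2.43 to 6.93% for other pairs, and for 15901 (82.1%) of the called ones. Most called probe sets are thus ones where the adult arrays also differ from the cultured cells and from P1, and age and array processing cannot be told apart for them. Among 6703 rows that both tables share and that carry no gene symbol, the median absolute difference was 0.617 between adult and E17.5 and 0.327 between P1 and E17.5, with 0.392 between the E17.5 replicates, 0.476 between those of P1 and 0.432 between those of adult hearts. The number of called probe sets was 11828 without E17.5 replicate 2. Where in its gene a probe set lies was not used here, so an alternative exon, start or end cannot be told apart.

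The largest rises in genes whose level changed by at most 1 included probe sets of a calcium channel, the spliceosome and a ubiquitin ligase. A probe set of Itpr3 (10443155), a calcium release channel, had 3.42 and 4.66 at E17.5, 5.67 and 4.28 at P1 and 10.71 and 10.86 in adult hearts. The gene means were 6.84 at E17.5, 6.88 at P1 and 6.63 in adult hearts, and the index rose by 6.96 ± 0.52 (adjusted p = 0.000258), with the E17.5 and P1 signals below 6.45. For Prpf8, the core protein of the spliceosome, probe set 10378599 had 3.03 and 2.82 at E17.5, 8.08 and 8.09 at P1 and 9.86 and 9.53 in adult hearts, and its index rose by 6.85 ± 0.54 against a low E17.5 signal. In Huwe1, a large ubiquitin ligase, the index of probe set 10602527 rose by 7.23 ± 0.98. Rbm5, a splicing regulator, had a probe set whose index rose by 6.08 ± 0.75. That of Ndufa9, a subunit of respiratory complex I, rose by 5.92 ± 1.59, a call lost when any 1 E17.5 or adult array was left out. The gene-level differences were −0.21 for Itpr3, −0.08 for Prpf8 and 0.49 for Huwe1. Shares of the index rise before P1 were 70.1% for Prpf8, 57.3% for Huwe1 and 50.6% for Ndufa9. They were 12.8% for Itpr3 and −15.1% for Rbm5, and none of these differences by P1 was called.

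The largest falls included probe sets of a chromatin reader, a calcium channel and a transcriptional coregulator. A probe set of Trim24 (10537337), a chromatin reader and nuclear receptor cofactor, had 8.31 and 8.21 at E17.5, 7.63 and 6.64 at P1 and 3.85 and 4.03 in adult hearts. Its index fell by 5.0 ± 0.22 (adjusted p = 7.26e-05), with both adult signals below 6.45. For Cacna1c, the pore of the L-type calcium channel, probe set 10547324 had 8.08 and 7.18 at E17.5, 8.93 and 9.09 at P1 and 2.79 and 3.14 in adult hearts. Its index fell by 5.11 ± 0.77 (adjusted p = 0.00261), again with low adult signals, while the gene itself was not called, and 8 of 51 tested probe sets of this gene were called. In Tcf20, a transcriptional coregulator, the index of probe set 10430921 fell by 5.15 ± 0.42. For Abca5, a lipid transporter, the index fell by 4.93 ± 0.51, for Sema5a, a guidance cue, it fell by 4.90 ± 0.66, and for Asah2, a ceramidase, it fell by 4.86 ± 0.68. Shares of the index fall before P1 were 21.6% for Trim24, −9.6% for Cacna1c and 8.8% for Tcf20. They were 20.8% for Abca5, 20.3% for Sema5a and 5.3% for Asah2. The 2 parts were called different for 2601 probe sets (2.47%), the later one more positive for 1028 (0.977%) and more negative for 1573 (1.49%), among them those of Itpr3, Rbm5, Tcf20, Trim24 and Abi2.

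**Figure D5:**
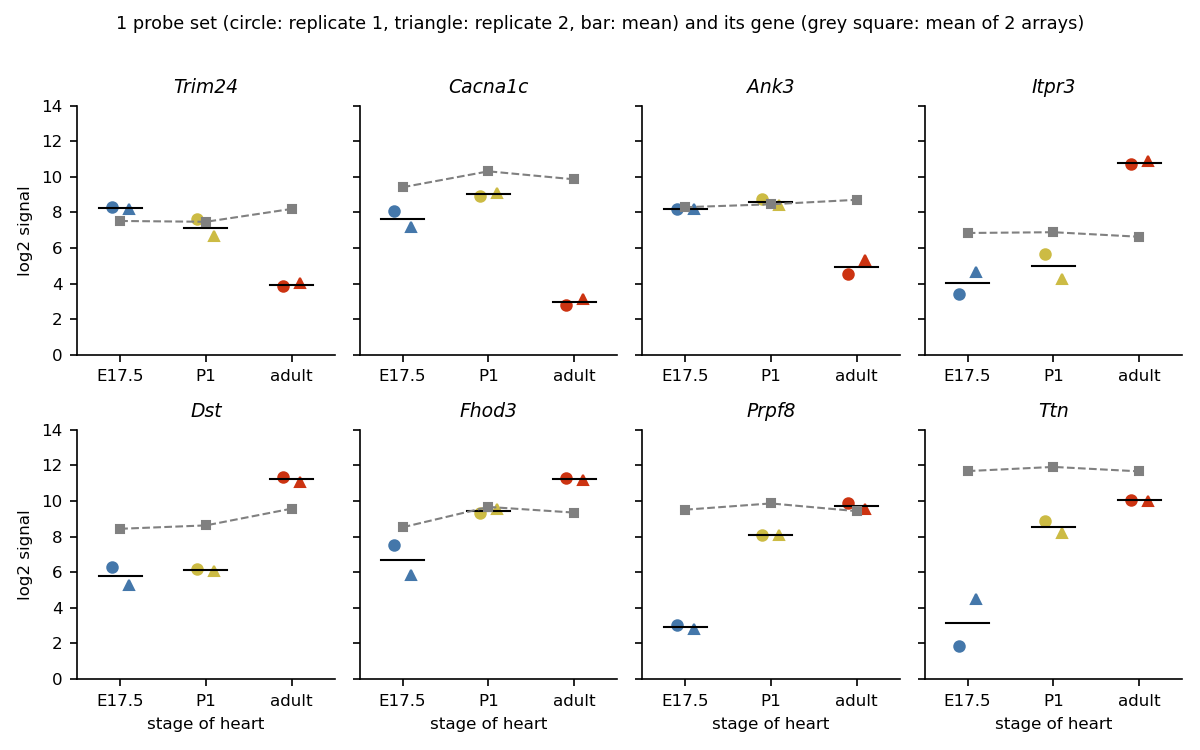
Log2 signal (vertical axis) of 8 probe sets on each heart array (points) beside the mean of their gene (line) at E17.5, P1 and adult. The Trim24, Cacna1c and Ank3 probe sets fall below their genes in adult hearts, while those of Itpr3, Dst, Fhod3, Prpf8 and Ttn rise.

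Probe sets of genes known for alternative splicing in heart were called about as often as those of all genes, with examples among proteins of the sarcomere and membrane skeleton. Of 2124 probe sets in 70 such genes 402 were called (18.9%, against 18.4% of all), 216 higher and 186 lower, in 59 genes. Ttn, titin, the elastic filament that changes isoforms after birth, had 50 of 320 tested probe sets called, 28 higher and 22 lower. Its most changed probe set (10484049) had 1.86 and 4.48 at E17.5, 8.87 and 8.21 at P1 and 10.09 and 10.01 in adult hearts. The index rose by 6.89 ± 0.84 (adjusted p = 0.00117) against a low E17.5 signal, and the adult arrays did not lie outside all others. Of this rise 74.5% was present at P1, although the difference by P1 was not called. For Dst, a cytoskeletal linker, probe set 10345256 had 6.28 and 5.27 at E17.5, 6.20 and 6.10 at P1 and 11.34 and 11.09 in adult hearts, and its index rose by 4.31 ± 0.56. In Fhod3, a formin that assembles sarcomeres, probe set 10454382 had 7.54 and 5.82 at E17.5, 9.35 and 9.54 at P1 and 11.30 and 11.20 in adult hearts, and its index rose by 3.74 ± 0.58. Ank3, a membrane adaptor, had a probe set (10363813) at 8.21 and 8.19 at E17.5, 8.75 and 8.42 at P1 and 4.54 and 5.31 in adult hearts, and its index fell by 3.69 ± 0.53 (adjusted p = 0.00217). Nexn, an actin-binding Z-disc protein, rose by 5.04 ± 0.69 and Ank2, the ankyrin that anchors ion pumps, fell by 4.20 ± 0.39 at their most changed probe sets. Those of Ablim1 (4.18 ± 1.03), Ryr2 (3.72 ± 1.08) and Dmd (3.63 ± 0.76) were called with all arrays. The Dmd call was lost without E17.5 replicate 2 or adult replicate 2 (adjusted p up to 0.074), the Ablim1 call without E17.5 replicate 2 or either adult array (up to 0.126) and the Ryr2 call when any 1 E17.5 or adult array was left out (up to 0.162). Shares of these index changes before P1 were 4.3% for Dst, 43.3% for Fhod3, −6.0% for Ank3, 26.8% for Nexn and 18.7% for Ank2. They were 46.5% for Ablim1, 17.4% for Ryr2 and 32.4% for Dmd. The P1 replicates differed here too, since 19 of the 71 genes with a gene-level value were higher by over 1 in P1 replicate 1.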

How the data were processed

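RNA was extracted with TRIzol, depleted of ribosomal RNA, amplified to cDNA, labelled with biotin and hybridised to Affymetrix mouse gene arrays, per the labels' protocols. The authors deposited log2 signals, summarised with RMA per the submitters' processing notes; program versions and the genome build were not given in the sources used here. Arrays yield no read depth, so their number limits the precision, and no detection calls accompany the values. Array medians were 5.62 to 5.76 (gene level) and 6.40 to 6.53 (exon level).

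Of 35556 gene-level rows, 21789 have 1 gene symbol, 1621 several and 12146 none; only the first were used, and for 1015 genes with over 1 row the one of highest mean was kept. Group means were fitted over all 12 arrays with limma 3.58.1 in R 4.3.3 (lmFit, eBayes, Benjamini-Hochberg) and contrasts taken between adult, P1 and E17.5, without a replicate block. The labels do not pair samples by replicate number. Deviations of same-numbered arrays correlated at −0.04 (adult and E17.5), −0.062 (adult and P1) and 0.29 (P1 and E17.5). Same-numbered P1 and E17.5 arrays thus shared part of their deviation, which the fit did not use. With a replicate block 885 genes were called by P1, against 1021. Of 241576 exon-level rows, 212097 have 1 symbol, 4475 several and 25004 none. The index used genes with at least 4 probe sets whose signal reached the 50th percentile (5.662) in both groups, and probe sets reaching theirs (6.450) in at least 1; 1847 probe sets identical to their gene were left out. The fit was tested on simulated data.

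The comparison, gene lists and tests were chosen with earlier results of these data known. Genes named are the 12 largest rises and 12 largest falls, up to 4 called genes per list, a set of known heart genes whatever their result, the largest differences between the parts, and the 6 largest opposite changes; for probe sets, the 8 largest rises and falls in genes of steady level and the largest in listed heart genes. Of the known heart genes, H19, Ccnb1, Cdkn1a and Cpt1b were not analysed here, since no row carries their symbol alone. Other genes are described as chosen after their values were seen. Alternatives were other fits, summaries, normalizations and filters, and leaving out each array.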

Additional observations from a re-analysis of the deposited data

How the results depend on the processing

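Between adult and E17.5 hearts the count of 7188 called genes ranged from 5010 to 8004 when single heart arrays were left out, and the count after P1 of 6018 ranged from 4529 to 5938. The division at P1 was less stable. The 1021 genes called by P1 were 562 when only hearts were fitted, 568 with the median of the exon-level values, and 303 to 3056 when single arrays were left out. The 2533 genes whose parts were called different were 1478 with hearts only, 1434 with the exon-level median and 1384 to 3707 without single arrays. The 19373 called probe sets, of 105259 tested, were 11828 to 18370 without single arrays. With signal filters at the 70th percentile they were 10511, of only 56248 tested. The replicate block, which pairs same-numbered samples and is not given by the design, left 7000 genes called between adult and E17.5 (3495 higher and 3505 lower), 885 by P1, 5812 after P1, 2362 for the difference of the parts and 18730 probe sets. Of the counts above and their alternatives, 52 stayed within 1.5 times the value with all arrays and 13 did not. The 13 include the 70th percentile filter, which also tested fewer probe sets. With quantile normalization the split of the genes called by P1 turned to 625 higher and 595 lower, against 414 and 607, and that of the difference of the parts to 1352 and 1423, against 1407 and 1126. Of 227 named genes called between adult and E17.5, 177 kept call and direction under every alternative run, and of 24 named probe sets 19 did. Causes of the shifts were not tested.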
